A study of Danio rerio with 8 samples.

Results

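Divergent start pairs are places in the genome where 2 sets of RNA starts lie back to back, one firing on the minus strand and the other, a short way on, firing on the plus strand. In the RNA starts of whole zebrafish embryos, 435 such pairs were found, made of 870 regions out of 23602 (3.69%). A pair was a minus-strand region that ended 0 to 400 bases before the start of the nearest plus-strand region, and each region was used once, in the pair with the smallest gap. Regions had to be covered by the cluster lists of both replicates, and the list of replicate 1 has no low values above 0, so weak starts can be missing. Beyond that, no expression value entered this choice.

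Starts were mapped by cap analysis gene expression (CAGE), which captures capped RNAs and sequences their first bases. The embryos had the jam3b-sa37 genotype (sa37) at 16 or 12 hours post-fertilization (hpf), or were wild type (WT) at the same 2 stages, with 2 libraries in each of the 4 groups. The gene jam3b encodes a junctional adhesion molecule, a cell surface protein of cell contacts. No treatment was labelled, and the labels used here do not say whether carriers of sa37 were homozygous, how many embryos were pooled or whether the replicates came from separate clutches.

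Many vertebrate promoters fire in both directions. The opposite-strand start can belong to a second gene that is arranged head to head with the first, in which case both transcripts are stable messengers. It can also give an upstream antisense or promoter-associated RNA, which the nuclear exosome usually degrades soon after its cap is added. Enhancers give balanced pairs of short capped RNAs as well, mostly at low levels. The files do not pair regions with genes, so none of these classes was assigned here, jam3b itself was not analysed here, and the whole-embryo label was not checked against marker genes.

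Values are RPM, the tags of a region scaled to a common library total. The libraries held 10662458 to 23300915 tags in distinct clusters, and 3 tags correspond to 0.125 to 0.256 RPM, both computed from the step between values, which for replicate 1 is an estimate from values given to 2 decimals. Replicate 1 and replicate 2 were deposited with different cluster lists, and list 1 has no value between 0 and 0.5 RPM, so the replicate number, the list and its normalization cannot be told apart. Of the 870 members, 172 were listed at 0 in at least 1 library of list 1 and 14 in at least 1 library of list 2. The members took 3.45 to 4% of the RPM of all regions in every library.

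The gap was bounded by the rule. Its median was 126 bases, with 180 pairs at 0 to 100 bases, 117 at 101 to 200, 80 at 201 to 300 and 58 at 301 to 400. The next step, 401 to 500 bases, held 62 pairs. Just inside the limit, pairs with a gap of 400 bases had means of 142 RPM on the plus strand and 0.722 RPM on the minus strand on chromosome 22, and of 23.3 and 19.9 RPM on chromosome 9, and a chromosome 5 pair with a gap of 399 bases had 9.95 and 0.512 RPM. Just outside it, 3 pairs with a gap of 401 bases had 16.6 RPM on the plus strand and 39.1 RPM on the minus strand on chromosome 25, and 28.6 and 2.77 RPM and 59.8 and 0.665 RPM in 2 pairs on chromosome 8. In total, 431 pairs lay on the 25 chromosomes and 4 on unplaced sequences. The share of regions that were members ran from 2.26% on chromosome 20 to 6.11% on chromosome 17.

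Most pairs were lopsided, and neither strand was favoured. The stronger region of a pair had a median of 19.2 RPM and the weaker one 2.97 RPM. Partners covered by 1 list alone did not enter. Their means had medians of 0.203 RPM in list 1, whose libraries have no value between 0 and 0.5 RPM, and 0.229 RPM in list 2. Of these partners, 19 in list 1 and 26 in list 2 averaged 1 RPM or more, at up to 14.3 and 3.23 RPM. By the mean log2(RPM + 1) over the 8 libraries, the plus strand was higher in 205 pairs and the minus strand in 230. The log2 ratio of plus to minus, taken on log2(RPM + 1) throughout, had a median size of 1.81. In 307 pairs the strands were 2-fold or more apart on that scale, in 122 of these 8-fold or more, and in 128 pairs (29.4%) less than 2-fold. Over the 8 libraries, 326 pairs (74.9%) had the same strand higher in 8 of 8, the plus strand in 158 and the minus strand in 168. The ratio of a pair was close in the replicates, with r of 0.95 across the 435 pairs between replicate means, and 47 pairs had opposite signs. The level of one strand told little of the level of the other: across the 435 pairs, which share libraries and normalization, r was -0.05. Other head-to-head neighbours, paired in the same way, had r of 0.14 at gaps of 401 to 1000 bases. It was 0.01 at 1001 to 5000 bases and 0.05 at over 5000. The median size of their ratio was 1.73, 1.78 and 1.77. Lopsided pairs and unrelated levels were thus not particular to the members.

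**Figure D1:**
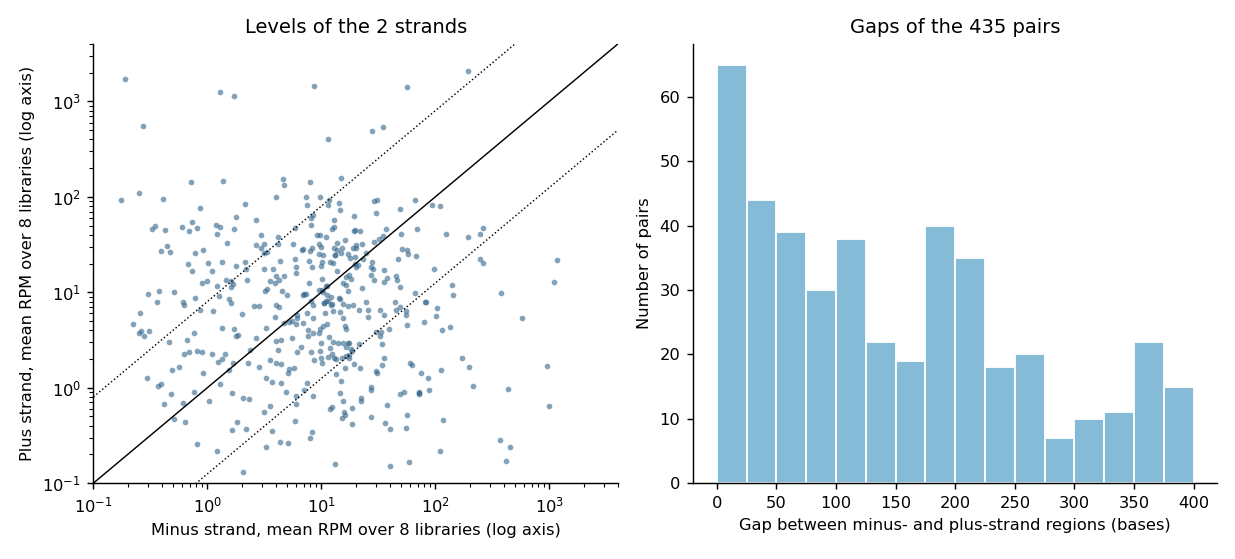
Left, mean RPM over 8 libraries of the plus-strand region (vertical, log axis) against the minus-strand region (horizontal, log axis) for each of the 435 pairs. The solid line marks equal levels and the dotted lines 8-fold. Right, number of pairs by gap in bases. The points fill both sides of the line with no trend, 205 with the plus strand higher and 230 with the minus strand higher. The median gap is 126 bases.

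The stronger region was also the wider one in 299 pairs, with a median length of 89 bases against 59 for the weaker region, while the weaker one was longer in 134 pairs and both were equal in 2. Members as a whole had a higher median level than the other regions, 8.58 against 4.98 RPM, and were somewhat narrower, with medians of 76 against 86 bases. The width of a region is the span of merged clusters and so depends on both lists.

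Of the 435 pairs, 94 had both strands at 10 RPM or more, a share that was not counted for the other head-to-head neighbours. The one with the highest weaker strand was a chromosome 23 pair with a gap of 127 bases (plus strand, 36207700 to 36207774; minus strand, 36207090 to 36207573). Its plus strand had 1792 and 2519 RPM in sa37 and 1723 and 2452 RPM in WT at 16 hpf (replicate 1, then replicate 2, here and in all later pairs of values), and 1838 and 2500 RPM in sa37 and 1676 and 2143 RPM in WT at 12 hpf. Its minus strand had 95.5 and 306 RPM in sa37 and 85.9 and 277 RPM in WT at 16 hpf, and 96.8 and 282 RPM in sa37 and 84.5 and 328 RPM in WT at 12 hpf. The plus strand was above the minus strand in all 8 libraries, and the minus strand was higher in every library of replicate 2 than in any of replicate 1.

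The next was a balanced chromosome 2 pair with a gap of 217 bases (plus strand, 24661821 to 24661925; minus strand, 24661478 to 24661604), with means over 8 libraries of 81.3 RPM on the plus strand and 93.6 RPM on the minus strand. Its log2 ratio lay between -0.84 and 0.10 in the 8 libraries. In a chromosome 1 pair with a gap of 118 bases (plus strand, 48790590 to 48790679; minus strand, 48790419 to 48790472), the stronger strand differed between the replicates. Its log2 ratio was between -1.22 and -0.82 in the 4 libraries of replicate 1 and between 0.61 and 1.05 in the 4 of replicate 2. The order of its strands is therefore not settled by these files.

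At the other extreme, a chromosome 25 pair with a gap of 135 bases was almost wholly on the plus strand (plus, 35765367 to 35765406, mean 1729 RPM; minus, 35765219 to 35765232, mean 0.189 RPM), and its log2 ratio lay between 9.88 and 11.18. A chromosome 21 pair with a gap of 97 bases (plus, 3013270 to 3013341, mean 1247 RPM; minus, 3013126 to 3013173, mean 1.3 RPM) came next, at 8.40 to 9.70. The most minus-sided pairs were on chromosome 11 with a gap of 120 bases (plus, 38286754 to 38286806, mean 0.641 RPM; minus, 38286338 to 38286634, mean 987 RPM) and on chromosome 3 with a gap of 79 bases (plus, 23444647 to 23444684, mean 0.237 RPM; minus, 23444065 to 23444568, mean 450 RPM). Their log2 ratios lay between -10.11 and -8.46 and between -9.12 and -7.57. In these 4 pairs the weak partner was at 0 in at least 1 library of replicate 1 in 3 cases, on chromosomes 25, 11 and 3. In these 3 pairs the weak partner averaged under 1 RPM, so the 1 RPM added to both strands limits the ratio. Their rank therefore partly reflects the level of the strong strand.

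The first comparison asked which members differed between sa37 and WT embryos. Averaged over the stages, the members called both with and without the replicate number in the model lay on chromosomes 16, 8, 15 and 3. Both strands of a chromosome 16 pair were seen in sa37 embryos alone, and the minus strand of a chromosome 8 pair was nearly lost in sa37. Single strands of pairs on chromosomes 15 and 3 were higher in sa37. The regions on chromosomes 16, 8 and 15 reached the level needed for the test through a single genotype, so they had to differ to be tested. Members were tested with limma on log2(RPM + 1), with Benjamini-Hochberg adjustment over all 19000 regions whose mean reached 1 RPM, and called at an adjusted p under 0.05. Of the 870 members, 749 reached that mean and 121 did not. Without the replicate number in the model, 5 of the 749 were called averaged over stages (4 higher, 1 lower in sa37), against 0.632% of all regions. One was called at 16 hpf (0.0895% of all regions) and 1 at 12 hpf (0.1% of all regions). These 5, 1 and 1 were all among the calls of the fit with the replicate number as a block.

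With the block, which takes out the difference between the replicates and their lists, 54 members were called averaged over stages. Of the 749, 34 (4.54%) were higher in sa37, against 4.74% of all regions, and 20 (2.67%) lower, against 2.63%. At 16 hpf, 6 were higher (0.801%, against 1.37% of all regions) and 5 lower (0.668%, against 0.758%). At 12 hpf, 12 were higher (1.6%, against 1.61%) and 6 lower (0.801%, against 1.26%). The members' shares averaged over stages were thus near those of all regions. The median difference between sa37 and WT averaged over stages was 0.07 in members and 0.06 in all regions, and its median size was 0.16 and 0.17. Quantile normalization with the block gave 29 higher and 21 lower averaged over stages, and edgeR with the block on recovered tags 19 higher and 17 lower. For these settings the shares of all regions are not given here. The 54 differences had sizes from 0.44 to 3.78, and 21 of them were 2-fold or more on the log2(RPM + 1) scale.

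The count averaged over stages fell to between 16 and 36 when any 1 library was left out of the blocked fit. At 16 hpf it was 3 or 8 without WT replicate 1 or 2, 4 or 5 without sa37 replicate 1 or 2, 6 without either sa37 library of 12 hpf and 9 without either WT library of 12 hpf. At 12 hpf it was 2 or 3 without WT replicate 1 or 2, 3 or 2 without sa37 replicate 1 or 2, 9 without either sa37 library of 16 hpf and 17 without either WT library of 16 hpf. Genotype differences in bulk RNA of whole embryos cannot tell fewer cells of a type from less RNA per cell.

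On chromosome 16, a pair with a gap of 7 bases was present in sa37 embryos and listed at 0 in WT. Its minus-strand region (22218184 to 22218258) had 8.55 and 6.31 RPM in sa37 at 16 hpf and 10.2 and 10.5 RPM in sa37 at 12 hpf, against 0 in all 4 WT libraries. Its plus-strand region (22218265 to 22218295) had 2.95 and 2.45 RPM in sa37 at 16 hpf and 1.62 and 1.83 RPM in sa37 at 12 hpf, against 0 in all 4 WT libraries. The genotypes did not overlap on either strand. Both regions reached the mean of 1 RPM needed for the test, at 4.45 RPM for the minus strand and 1.11 RPM for the plus strand, through the sa37 libraries alone, so they had to differ to be tested. With the lowest measurable level per WT library in place of 0, the minus strand was at least 26.3-fold higher in sa37 and the plus strand at least 6.53-fold higher.

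The averaged difference of the minus strand was 3.28 (SE 0.12 with the block), and its limma adjusted p was 7.03e-05 with the block and 0.00291 without. The plus strand differed by 1.66 (SE 0.10), and its limma adjusted p was 0.000621 with the block and 0.027 without. The minus strand was also called without the block at 16 hpf (limma adjusted p 0.0367) and at 12 hpf (limma adjusted p 0.0216). Without the block, the call on the plus strand averaged over stages was lost when any 1 library was left out (limma adjusted p 0.111 to 0.166), and so were the minus-strand calls at single stages, whereas the averaged call on the minus strand held (0.0221 to 0.0308).

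On chromosome 8, a pair with a gap of 41 bases (plus, 23173002 to 23173139; minus, 23172697 to 23172961) moved apart. The minus strand had 0 and 1.54 RPM in sa37, against 19 and 22.4 RPM in WT at 16 hpf, and 0.51 and 0.172 RPM in sa37, against 13.2 and 22.7 RPM in WT at 12 hpf. All 4 sa37 libraries were below all 4 WT libraries. The minus strand averaged 0.554 RPM in sa37 and reached the mean of 1 RPM needed for the test through WT alone. It therefore had to differ to be tested, here and for the ratio. The plus strand had 10.3 and 46.1 RPM in sa37, against 6.12 and 20.1 RPM in WT at 16 hpf, and 8.2 and 33.3 RPM in sa37, against 5.96 and 20.4 RPM in WT at 12 hpf. Within each replicate the plus strand was higher in sa37, while the replicates themselves lay further apart than the genotypes.

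The minus strand differed by -3.78 averaged over stages (SE 0.27 with the block, limma adjusted p 0.0118 without the block and 0.000939 with it). Without the block that call did not hold with 5 of the 8 libraries left out in turn, at adjusted p of 0.0624 and 0.0763 without sa37 replicates 1 and 2 of 12 hpf, 0.0607 without WT replicate 2 of 12 hpf, and 0.0513 and 0.0621 without WT replicates 1 and 2 of 16 hpf, nor with a pseudocount of 0.1 (0.0977). The plus strand differed by 0.73 (SE 0.12 with the block) and was called with the block alone, at a limma adjusted p of 0.0214 against 1 without it. This was the 1 pair of 321 with both strands tested whose strands were called in opposite directions with the block, averaged over stages, against 0.468% of all head-to-head neighbours at any gap.

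In a chromosome 15 pair with a gap of 102 bases, the plus strand (29623980 to 29624113) had 6.94 and 5.19 RPM in sa37, against 0 and 0.547 RPM in WT at 16 hpf, and 5.04 and 5.27 RPM in sa37, against 0 and 0.428 RPM in WT at 12 hpf. This strand averaged 0.244 RPM in WT and reached the mean of 1 RPM needed for the test through sa37 alone. It therefore had to differ to be tested, here and for the ratio. The genotypes did not overlap, and the difference was 2.43 (SE 0.18 with the block, limma adjusted p 0.017 without the block and 0.0012 with it). Without the block that call was lost with any 1 library left out (limma adjusted p 0.059 to 0.0991) and with a pseudocount of 0.1 (0.114). Its minus strand (29623772 to 29623878) had 13.1 and 21.7 RPM in sa37, against 11.9 and 15.2 RPM in WT at 16 hpf, and 15.7 and 20.6 RPM in sa37, against 11.4 and 15.3 RPM in WT at 12 hpf. That strand differed by 0.36 and was not called (limma adjusted p 1 without the block and 0.111 with it).

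A chromosome 3 pair with a gap of 340 bases showed the reverse strand. Its minus strand (41983298 to 41983869) had 11.5 and 7.35 RPM in sa37, against 2.51 and 1.43 RPM in WT at 16 hpf, and 10.7 and 8.7 RPM in sa37, against 1.41 and 0.985 RPM in WT at 12 hpf, 6.04-fold higher in sa37 in the means of 4 libraries. The difference was 2.05 (SE 0.11 with the block, limma adjusted p 0.031 without the block and 0.00037 with it), and without the block it was not called with any 1 library left out (0.0904 to 0.154). Its plus strand (41984209 to 41984670) averaged 3.35 RPM in sa37 and 3.31 RPM in WT, and differed by -0.16 (limma adjusted p 0.707 with the block).

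**Figure D2:**
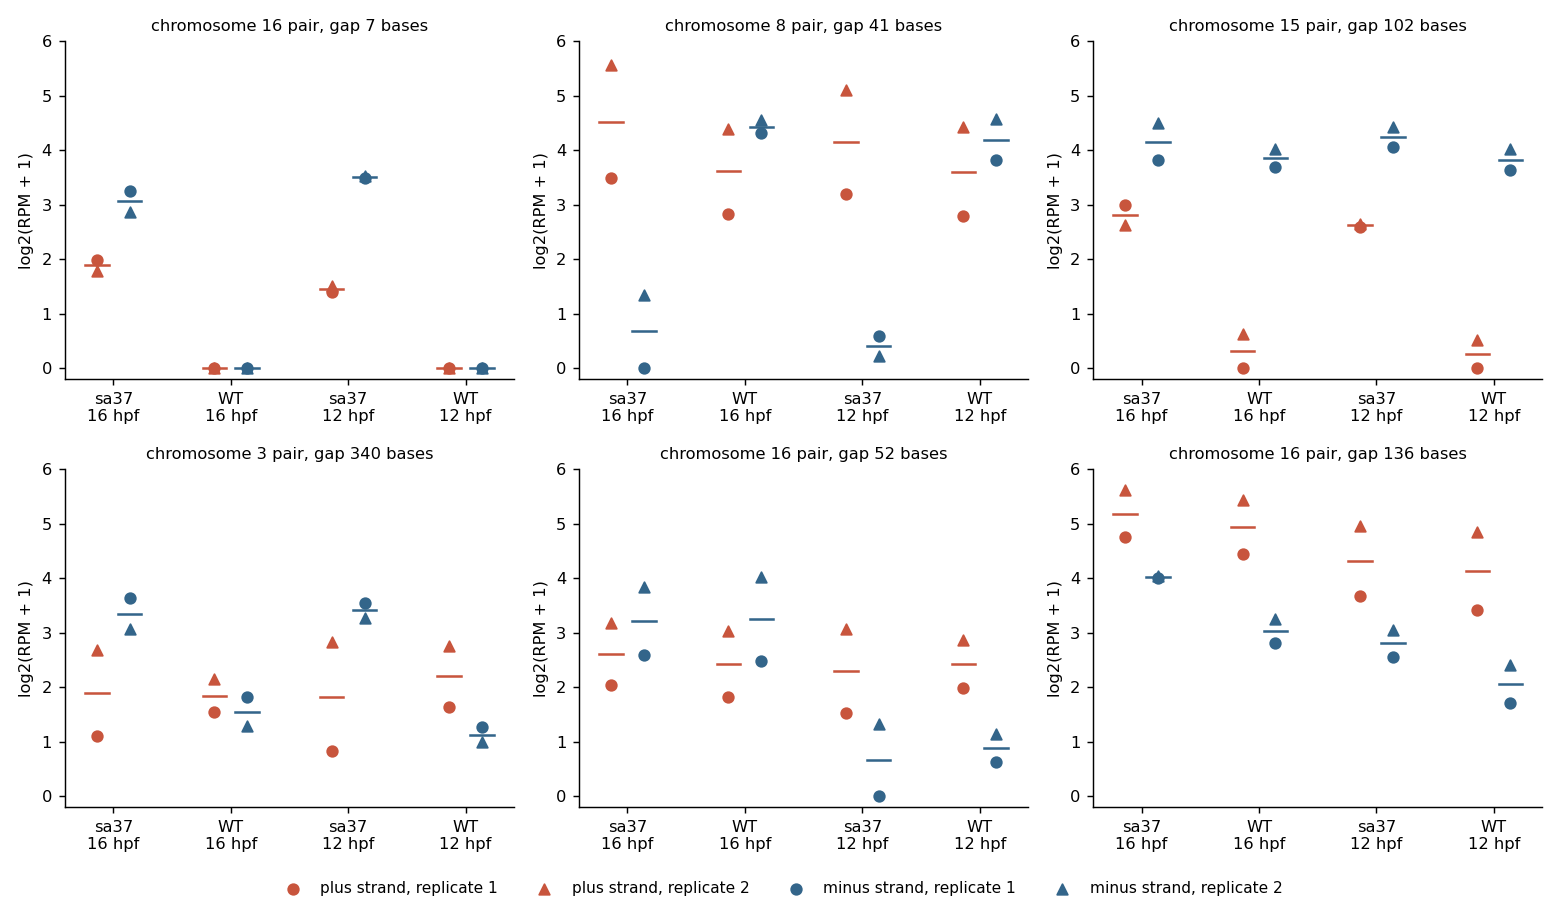
Values on log2(RPM + 1) (vertical) by group (horizontal) for 6 pairs, with the plus strand in red and the minus strand in blue. Circles are replicate 1, triangles replicate 2 and bars the mean of both. The chromosome 16 pair with a gap of 7 bases is at 0 in every WT library. The minus strand of the chromosome 8 pair is at 0 to 1.54 RPM in sa37 and 13.2 RPM or more in WT. The 2 lower right pairs were called higher at 16 hpf by limma with the replicate block. For a gap of 52 bases the minus strand alone was called, and for a gap of 136 bases both strands.

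With the block, 5 pairs of 321 had both strands called in the same direction averaged over stages, against 0.655% of all head-to-head neighbours. They include the chromosome 16 pair with a gap of 7 bases, whose regions had to differ to be tested. Beside the chromosome 16 pair these were a chromosome 8 pair with a gap of 9 bases, a chromosome 2 pair with a gap of 72 bases, and 2 pairs that the rule for naming left out and that were named after their values were seen, on chromosome 10 with a gap of 184 bases and on chromosome 6 with a gap of 228 bases. In the chromosome 8 pair the plus strand (387566 to 387615) averaged 6.38 RPM over the 4 sa37 libraries and 3.44 RPM over the 4 WT libraries, and the minus strand (387126 to 387557) 96.7 RPM in sa37 and 63 RPM in WT. The differences were 0.79 and 0.61 (SE 0.13 and 0.10, limma adjusted p with the block 0.018 and 0.0163, and 1 without it for both). The chromosome 2 pair was the 1 pair lower on both strands. Its plus strand (3203044 to 3203327) averaged 19.6 RPM in sa37 and 30.5 RPM in WT, and its minus strand (3202871 to 3202972) 5.96 RPM in sa37 and 13.3 RPM in WT. The differences were -0.60 and -1.01 (SE 0.11 and 0.10, limma adjusted p with the block 0.0259 and 0.00382, and 0.753 and 0.631 without it).

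The chromosome 10 pair was higher in sa37 by 0.85 on the plus strand (27028371 to 27028570) and 1.04 on the minus strand (27028122 to 27028187). The limma adjusted p with the block was 0.031 and 0.0091, and 0.534 and 1 without it. The chromosome 6 pair was higher by 0.70 on the plus strand (21779790 to 21779832) and 0.70 on the minus strand (21779486 to 21779562). Its limma adjusted p with the block was 0.0386 and 0.0108, and 0.61 and 0.632 without it. Of these 5 pairs, 4 were higher in sa37 and 1 lower. At single stages the chromosome 16 pair was the 1 pair with both strands called the same way, against 0.0935% of all head-to-head neighbours at 16 hpf and 0.218% at 12 hpf. Its regions entered the test through sa37 alone and had to differ to be tested, so this count says nothing of the members as a set.

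The second comparison asked which members changed between 16 and 12 hpf. Without the block, limma called 0 of 749 members in sa37 (0.1% of all regions) and 0 in WT (0.0421% of all regions), with 14 and 20 members and 1224 and 1221 of the 19000 regions at an unadjusted p under 0.05. With the block, 43 members (5.74%) were higher at 16 hpf in sa37, against 11.5% of all regions, and 11 (1.47%) lower, against 2.84%. In WT, 46 (6.14%) were higher at 16 hpf, against 9.81% of all regions, and 15 (2%) lower, against 4.03%. Quantile normalization with the block moved these splits to 20 higher and 18 lower in sa37 and to 33 higher and 22 lower in WT. EdgeR with the block on recovered tags gave 9 higher and 19 lower in sa37 and 19 higher and 18 lower in WT. The split of the directions changed in both genotypes with the normalization and with edgeR on recovered tags, and why was not tested. The shares of all regions under these settings are not given here, so the change cannot be read as particular to the members.

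The median stage difference was 0.13 in members and 0.12 in all regions in sa37, and 0.09 and 0.05 in WT. Its median size was 0.25 in members and 0.29 in all regions in sa37, and 0.23 and 0.28 in WT. With the block, 30 members were called in both genotypes, which is 30 of 54 in sa37 and 30 of 61 in WT, and all 30 had the same direction. Over all 19000 regions, 1802 were called in both genotypes, which is 66.3% of the 2717 in sa37 and 68.5% of the 2629 in WT, against 55.6% and 49.2% for the members, and all 1802 had the same direction. The difference in these shares was not tested. In sa37 the count was 4 or 14 without sa37 replicate 1 or 2 of 12 hpf, 3 or 7 without sa37 replicate 1 or 2 of 16 hpf, 42 without either WT library of 12 hpf and 33 without either of 16 hpf. In WT it was 9 or 27 without WT replicate 1 or 2 of 12 hpf, 9 or 13 without WT replicate 1 or 2 of 16 hpf, 46 without either sa37 library of 12 hpf and 33 without either of 16 hpf.

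With the block, the called stage differences had sizes of 0.56 to 3 in sa37 and 0.55 to 2.37 in WT, and the largest in sa37 belonged to a member not described here. The largest stage difference among the 30 members called in both genotypes was on chromosome 16, in a pair with a gap of 52 bases. Its minus strand (26858511 to 26858533) had 5.03 and 13.3 RPM at 16 hpf, against 0 and 1.49 RPM at 12 hpf in sa37, and 4.59 and 15.3 RPM at 16 hpf, against 0.55 and 1.2 RPM at 12 hpf in WT. The stages did not overlap in either genotype. At 12 hpf this strand averaged 0.745 RPM in sa37 and 0.875 RPM in WT, so it reached the mean of 1 RPM through 16 hpf alone. It therefore had to differ to be tested, here and for the ratio. The plus strand (26858585 to 26858666) had 3.12 and 8.05 RPM at 16 hpf, against 1.88 and 7.44 RPM at 12 hpf in sa37, and 2.51 and 7.15 RPM at 16 hpf, against 2.98 and 6.25 RPM at 12 hpf in WT. The minus strand was thus the stronger start in all 4 libraries of 16 hpf and the weaker one in all 4 of 12 hpf.

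The minus strand rose by 2.56 in sa37 and 2.37 in WT (SE 0.26 for both with the block). Its limma adjusted p with the block was 0.00263 and 0.00357, and 0.387 and 0.434 without it. The plus strand differed by 0.31 in sa37 and -0.01 in WT and was not called, at limma adjusted p of 0.334 and 0.988 with the block.

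Both strands were higher at 16 hpf in a chromosome 16 pair with a gap of 136 bases. The minus strand (32605556 to 32605598) had 15 and 15.5 RPM at 16 hpf, against 4.87 and 7.33 RPM at 12 hpf in sa37, and 6.06 and 8.49 RPM at 16 hpf, against 2.27 and 4.29 RPM at 12 hpf in WT. The plus strand (32605734 to 32606003) had 26 and 48 RPM at 16 hpf, against 11.8 and 30 RPM at 12 hpf in sa37, and 20.9 and 42.4 RPM at 16 hpf, against 9.72 and 27.8 RPM at 12 hpf in WT. Each replicate was higher at 16 hpf on both strands in both genotypes. The differences with the block were 1.22 and 0.98 on the minus strand (limma adjusted p 0.0101 in sa37 and 0.0208 in WT) and 0.87 and 0.81 on the plus strand (0.0269 in sa37 and 0.0347 in WT), and none was called without the block.

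That pair was the 1 of 321 with both strands called the same way between stages in sa37, against 2.12% of all head-to-head neighbours. In WT there were 2 such pairs, against 2% of all head-to-head neighbours, this one and a chromosome 4 pair with a gap of 143 bases. In the chromosome 4 pair the plus strand (5733177 to 5733395) averaged 21.3 RPM at 16 hpf and 11.4 RPM at 12 hpf in WT, and the minus strand (5733001 to 5733034) 1.62 RPM at 16 hpf and 0.3 RPM at 12 hpf. That minus strand also averaged only 0.799 RPM at 12 hpf in sa37, so it reached the mean of 1 RPM needed for the test through 16 hpf alone. The differences in WT were 0.84 and 1.03 (limma adjusted p with the block 0.0211 and 0.0137, and 0.762 and 0.628 without it).

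The members with the strongest falls, named after their values were seen, were minus-strand regions on chromosome 15 in a pair with a gap of 11 bases and on chromosome 11 in a pair with a gap of 131 bases. The chromosome 15 region (27778112 to 27778250) had 5.38 and 8.1 RPM at 16 hpf, against 19.3 and 28.6 RPM at 12 hpf in sa37, and 3.85 and 5.97 RPM at 16 hpf, against 13.2 and 20.4 RPM at 12 hpf in WT. It fell by 1.69 in sa37 and by 1.59 in WT (limma adjusted p with the block 0.00162 and 0.00195). The chromosome 11 region (3841100 to 3841217) fell by 1.29 in sa37 and by 1.38 in WT (limma adjusted p with the block 0.00521 and 0.00434). Neither was called without the block.

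A genotype effect that depends on the stage was tested as the genotype by stage interaction. Limma called 0 of 749 members and 0% of all regions both without and with the block, with 0 and 19 members and 46 and 872 of the 19000 regions at an unadjusted p under 0.05, and edgeR with the block called 0 (16 members at an unadjusted p under 0.05). This does not show that the genotype difference was equal at both stages.

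Calls were then counted per pair. In the 321 pairs with both strands tested, one strand alone was called with the block in 31 pairs (9.66%) for genotype averaged over stages, against 12.7% of all 3207 head-to-head neighbours at any gap with both regions tested. It was 7 pairs (2.18%, against 4.3%) at 16 hpf and 12 (3.74%, against 5.83%) at 12 hpf, and for stage 35 pairs (10.9%, against 24.7%) in sa37 and 42 (13.1%, against 23.6%) in WT. Among pairs with any call, both strands were called in 6 of 37 members and 30 of 407 other neighbours for genotype averaged over stages, in 1 of 36 and 82 of 838 for stage in sa37, and in 2 of 44 and 81 of 795 for stage in WT. Calls on one strand alone were thus the more common kind among the neighbours at larger gaps too. For genotype averaged over stages the called strand had a median size of difference of 0.82 and its partner 0.17, and 16 of the 31 partners moved in the same direction. For stage in sa37 the medians were 0.90 and 0.27, with 26 of 35 partners in the same direction. For stage in WT they were 0.86 and 0.32, with 22 of 42. The called strand was chosen for its size, so its larger median is a description.

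Across the 321 pairs, the difference on the plus strand correlated with that on the minus strand with r of 0.13 (rho 0.04) for genotype averaged over stages, 0.15 (rho 0.15) for stage in sa37 and 0.13 (rho 0.13) for stage in WT. For the same 3 comparisons, r was 0.20, 0.20 and 0.35 in head-to-head neighbours at gaps of 401 to 1000 bases. It was 0.19, 0.10 and 0.08 at 1001 to 5000 bases and 0.02, 0.09 and 0.07 at over 5000. Across all 749 tested members, the differences in replicate 1 correlated with those in replicate 2 with r of 0.67, 0.65 and 0.63 (rho 0.49, 0.59 and 0.60), in the same order of comparisons. Both strands share the library and its scaling, which would move them together, and pairs are not independent replicates.

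**Figure D3:**
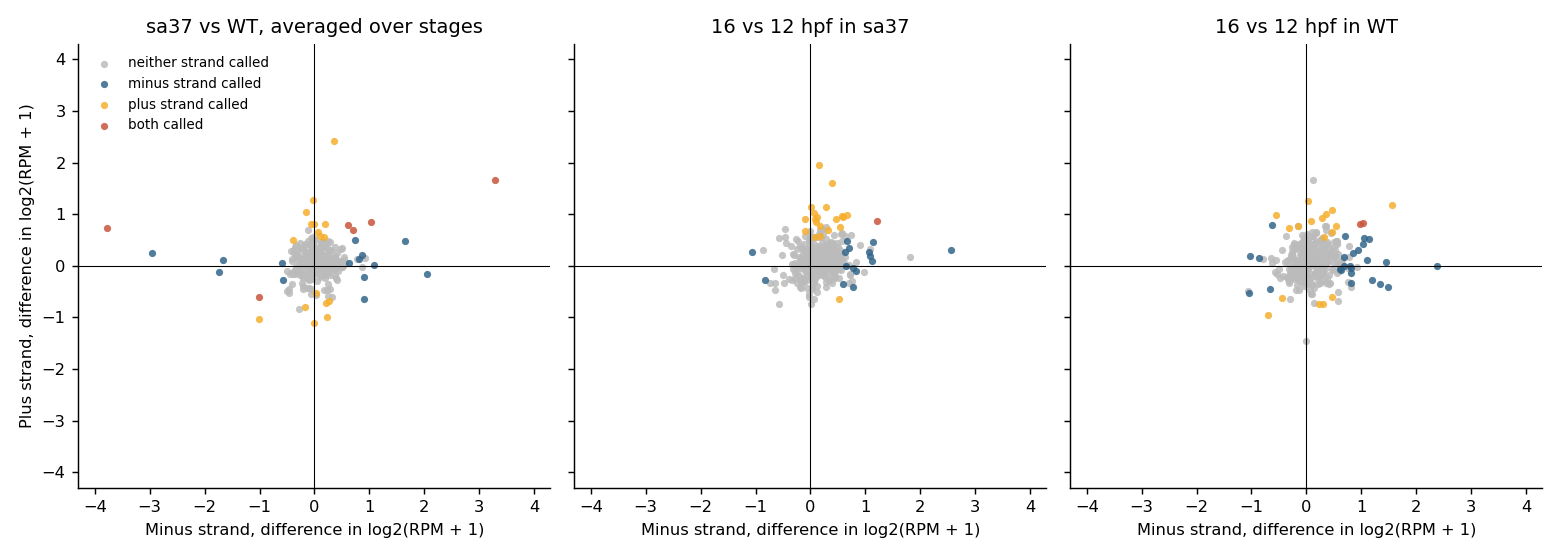
Difference on the plus strand (vertical) against that on the minus strand (horizontal), both in log2(RPM + 1), for the 321 pairs with both strands tested, in 3 comparisons. Colours give the calls of limma with the replicate block. One strand alone was called in 31, 35 and 42 pairs and both in 6, 1 and 2. Among the 2886 other head-to-head neighbours, not plotted, one strand alone was called in 377, 756 and 714 pairs and both in 30, 82 and 81.

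The balance of the strands was then tested itself, as the log2 ratio of plus to minus, with limma over the 3207 head-to-head neighbours at any gap with both regions tested, 321 of them members. Without the block, 5 member pairs were called averaged over stages, against 2.03% of all 3207, with 0 at 16 hpf (0.343%) and 0 at 12 hpf (0.374%), where 13 and 18 members and 204 and 242 of all 3207 had an unadjusted p under 0.05. With the block the ratio was called in 26 member pairs averaged over stages (8.1%, against 11.9% of all), 8 at 16 hpf (2.49%, against 4.08%) and 11 at 12 hpf (3.43%, against 5.52%). The 26 were split evenly, 13 towards the plus strand in sa37 and 13 towards the minus strand. Their differences had sizes of 0.57 to 4.50, with a median of 1.11.

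The largest was that of the chromosome 8 pair with a gap of 41 bases. Its log2 ratio was 3.50 and 4.22 in sa37, against -1.49 and -0.15 in WT at 16 hpf, and 2.61 and 4.87 in sa37, against -1.03 and -0.15 in WT at 12 hpf. The stronger strand was thus the plus strand in all 4 sa37 libraries and the minus strand in all 4 WT libraries. The ratio differed by 4.50 (SE 0.26 with the block, limma adjusted p 0.0132 without the block and 0.000107 with it). Without the block the call was lost at adjusted p of 0.0524 to 0.0665 without either sa37 library of 16 hpf, either WT library of 12 hpf or WT replicate 1 of 16 hpf.

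A chromosome 12 pair with a gap of 186 bases, named after its values were seen, shifted in the same direction. Its minus strand (48335635 to 48335681) had 6.59 and 0.83 RPM in sa37, against 26.9 and 41 RPM in WT at 16 hpf, and 7 and 1.03 RPM in sa37, against 19.2 and 33.3 RPM in WT at 12 hpf. Its plus strand (48335867 to 48335919) had 28.5 and 22 RPM in sa37, against 24 and 18.2 RPM in WT at 16 hpf, and 34.9 and 25 RPM in sa37, against 27.1 and 23.1 RPM in WT at 12 hpf. The loss was on the minus strand in every library of sa37, and it was deeper in replicate 2. The ratio differed by 3.19 (SE 0.49 with the block, limma adjusted p 0.0399 without the block and 0.00667 with it). Without the block it was not called with any 1 library left out (limma adjusted p 0.0534 to 0.134) or with a pseudocount of 0.1 (0.0974).

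In a chromosome 25 pair with a gap of 389 bases, the minus strand (14301844 to 14301866) averaged 1.09 RPM in sa37 and 5.57 RPM in WT, beside a plus strand (14302255 to 14302325) at 27.8 RPM in sa37 and 25.6 RPM in WT. The ratio differed by 1.78 (SE 0.24 with the block, limma adjusted p 0.0308 without the block and 0.00355 with it). Without the block it was not called with any 1 library left out (limma adjusted p 0.0546 to 0.117) or with a pseudocount of 0.1 (0.0964). The chromosome 15 pair with a gap of 102 bases differed by 2.07 (SE 0.24, limma adjusted p 0.0228 without the block and 0.00202 with it) through its plus strand, and it was not called with a pseudocount of 0.1 (limma adjusted p 0.0515). Without the block its call held with 1 library left out only where that was sa37 replicate 2 of 16 hpf (limma adjusted p 0.0346, and 0.0546 to 0.0909 for the other 7). The fifth call was the chromosome 16 pair with a gap of 7 bases, at -1.62, whose ratio has no meaning in WT since both strands were listed at 0 there, and without the block it was not called with any 1 library left out (0.0628 to 0.075).

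Between stages, 1 member pair was called without the block in sa37 (1.03% of all 3207) and 1 in WT (1.5%), both times the chromosome 16 pair with a gap of 52 bases. Its log2 ratio was -0.55 and -0.66 at 16 hpf, against 1.53 and 1.76 at 12 hpf in sa37, while in WT the ratios were below 0 in both libraries at 16 hpf, against 1.36 and 1.72 at 12 hpf. The sign turned in every replicate. The ratio differed by -2.25 in sa37 (SE 0.25 with the block, limma adjusted p 0.0343 without the block and 0.00214 with it) and by -2.38 in WT (SE 0.25, 0.0268 and 0.00141). Without the block, both calls were lost whichever library was left out (0.059 to 0.274 in sa37 and 0.071 to 0.2 in WT), and with a pseudocount of 0.1 (0.0908 and 0.131). With the block, each member and ratio called without it kept its call whichever library was left out.

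With the block the ratio was called in 16 member pairs between stages in sa37 (4.98%, against 15.3% of all) and in 21 in WT (6.54%, against 16%), of which 10 in both genotypes. The overlap over all head-to-head neighbours is not given here, so that of the members cannot be judged against it. The called ratios had median sizes of 1.10 in sa37 and 1.07 in WT. In a chromosome 7 pair with a gap of 295 bases, called in WT at -1.90 (SE 0.24, limma adjusted p with the block 0.00291, without it 0.185), the minus strand (58427367 to 58427425) had 11.9 and 22.7 RPM at 16 hpf, against 3.21 and 8.31 RPM at 12 hpf in WT. That pair was called in sa37 too, at -0.90 (limma adjusted p with the block 0.0451). In a chromosome 4 pair with a gap of 16 bases, called in sa37 at -1.17 (SE 0.22, limma adjusted p with the block 0.014, without it 0.204), the minus strand (25192330 to 25192380) had 83.8 and 100 RPM at 16 hpf, against 47.8 and 59.9 RPM at 12 hpf in sa37, and the plus strand (25192396 to 25192509) 15.9 and 26.7 RPM at 16 hpf, against 21.9 and 34.5 RPM at 12 hpf. It was called in WT too, at -0.94 (limma adjusted p with the block 0.0289).

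In a chromosome 3 pair with a gap of 13 bases the shift ran the other way in WT, at 1.54 (SE 0.28, limma adjusted p with the block 0.0108, without it 0.453), and it was 1.18 in sa37 (0.0283 with the block). Its plus strand (23611303 to 23611425) had 2.08 and 6.81 RPM at 16 hpf, against 0.78 and 2.48 RPM at 12 hpf in WT. Its minus strand (23611265 to 23611290) had 1.35 and 1.22 RPM at 16 hpf, against 2.43 and 2.31 RPM at 12 hpf in WT. A chromosome 7 pair with a gap of 102 bases shifted towards the plus strand at 16 hpf in both genotypes, by 1.33 in sa37 and 1.01 in WT (limma adjusted p with the block 0.014 and 0.0342). A chromosome 8 pair with a gap of 90 bases had 0.73 in sa37 and 1.41 in WT and was called in WT (0.124 and 0.015 with the block). A chromosome 23 pair with a gap of 177 bases had 1.12 in sa37 and 0.68 in WT and was called in sa37 (0.019 and 0.0831 with the block). None of the 3 was called without the block. For the interaction, the ratio was called in 0 member pairs and 0% of all, without the block and with it (0 and 10 member pairs, and 17 and 134 of all 3207, at an unadjusted p under 0.05).

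Calls were also counted by the gap of the head-to-head neighbours. With the block, regions of tested pairs were called between stages in sa37 in 5.76% of cases at gaps of 0 to 400 bases, 7.58% at 401 to 1000, 12.9% at 1001 to 5000 and 18.7% at over 5000. In WT the shares were 7.17%, 9.93%, 11.4% and 17.8%. For genotype averaged over stages they were 6.7%, 5.96%, 6.18% and 8.48%. The ratio was called between stages in sa37 in 4.98%, 6.86%, 12.8% and 19.6% of pairs, and in WT in 6.54%, 7.22%, 13% and 20.5%. For genotype it was called in 8.1%, 10.5%, 8.92% and 14.3% averaged over stages, in 2.49%, 1.44%, 3.09% and 5.26% at 16 hpf and in 3.43%, 3.25%, 4.04% and 6.96% at 12 hpf. Stage and genotype calls were thus both at their highest share at over 5000 bases. The median size of the ratio itself was nearly flat, at 1.81, 1.73, 1.78 and 1.77. The levels of these classes differed too, with medians of the weaker strand of 2.97, 5.27, 4.31 and 2.61 RPM and of the stronger strand of 19.2, 25.2, 21.4 and 16.3 RPM. The difference between the gap classes was not tested, and their 321, 277, 841 and 1768 pairs are not independent.

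**Figure D4:**
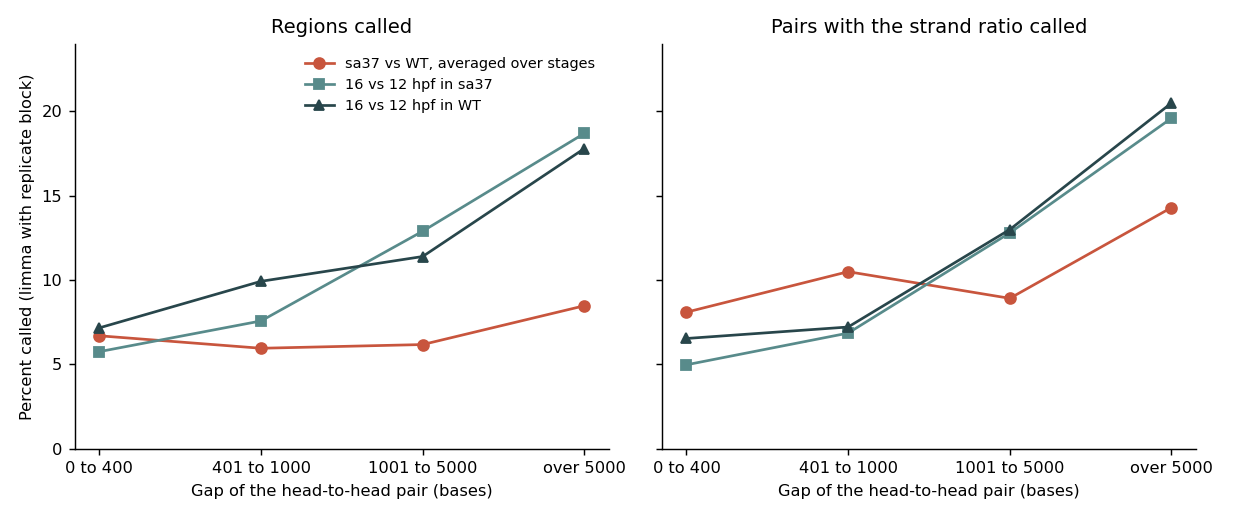
Percent of regions called (left) and of pairs with the strand ratio called (right) by limma with the replicate block, against the gap of the head-to-head pair in bases, for genotype averaged over stages and for stage in sa37 and in WT. All 6 shares are highest at gaps over 5000 bases: for regions 8.48% for genotype, 18.7% for stage in sa37 and 17.8% for stage in WT, and for the ratio 14.3%, 19.6% and 20.5%. At 0 to 400 bases they are 6.7%, 5.76% and 7.17% for regions and 8.1%, 4.98% and 6.54% for the ratio.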

How the data were processed

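The authors deposited 1 file per library with RPM values per CAGE tag cluster. The unit was read from the values, since neither labels nor headers name it. BWA, HISAT2 and the danRer10 build are named in the submitters' processing notes, and the clustering method is not given in the sources used here. Coordinates are printed as the files give them. No danRer10 genome or annotation was used here, so no gene names or sequences are given. Repeated rows (412 in list 1, 796 in list 2) were counted once. The 30353 clusters of list 1 and 42082 of list 2 were merged where they overlapped on a strand into 42130 regions, of which 6397 in list 1 alone and 12131 in list 2 alone were left out. A library's RPM within a region was summed. The smallest listed value above 0 took the place of 3 tags as the floor in list 1.

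Tests used limma 3.58.1 (R 4.3.3) on log2(RPM + 1), fitting 4 group means to all 8 libraries, with two-sided Benjamini-Hochberg adjusted p. The scale understates changes of low regions. The second fit added the replicate number, which comes from the titles and marks the cluster list. Libraries of the same number deviated together from their group means, with r of 0.68 to 0.831 between groups over all tested regions and 0.793 to 0.874 over members. P-values measure the spread between these libraries, which may be technical. Further settings were a pseudocount of 0.1, no filter, quantile normalization, values under 0.5 RPM set to 0, a gap limit of 200 bases, each library left out, and edgeR 4.0.16 on recovered tags. All RPM values of up to 20 were whole multiples of one tag within the files' rounding (0.005 RPM in list 1, 0.0005 in list 2). In list 1 that rounding is coarse beside the step and there are no values below 0.5 RPM, so its tags, totals, 3-tag levels and part in edgeR rest on an estimated step. The scripts were tested on simulated data with 200 of 19000 regions and 200 of 3207 strand ratios set 4-fold apart between sa37 and WT. Averaged over stages, limma with the block recovered 100% of these regions and 99% of these ratios, and edgeR 100% of the regions. Limma that left the block out recovered 0% and 44%. False calls numbered 10 and 16 in limma and 9 in edgeR with the block, and 0 in limma otherwise. A missing call in the fit that lacks the block does not show that nothing changed. The simulated replicates differed by the same amount in all 4 groups, so the fit with the block was bound to do better there. In the real libraries the replicate difference was shared less closely (r of 0.68 to 0.831). The simulated shares therefore do not measure recovery in the real data and do not bear on the calls made with the block. The floors cover counting error only, while the SEs, like the p-values, measure the spread between libraries.

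Named pairs were the 3 with the highest weaker strand, the 2 most plus-sided and 2 most minus-sided, and, per comparison and direction, the 2 with the smallest adjusted p with the block for both strands, for opposite strands and for the ratio. The members and lists were chosen with earlier results of these data known.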

Additional observations from a re-analysis of the deposited data

Results flagged for a closer look

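The plus strand of the chromosome 8 pair with a gap of 9 bases stood out because its stage difference had opposite signs in the genotypes, at -0.19 in sa37 and 0.39 in WT, 0.58 apart. The interaction did not pass, with a limma adjusted p of 0.985 under the block and 1 otherwise.

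Starts also appeared opposite regions that a single cluster list covered and that entered no comparison. In list 1, 100 pairs at 0 to 400 bases had one partner in that list alone and 21 had both. The single-list partners of the 100 pairs had a median of 0.203 RPM, and 16 of them were at 0.5 RPM or more in all 4 libraries. In list 2, 277 pairs had one such partner and 40 had both. Single-list partners of the 277 pairs had a median of 0.229 RPM, and 32 of them were at 0.5 RPM or more in all 4 libraries.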

How the results depend on the processing

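Each set of 5 counts runs through sa37 against WT averaged over stages, at 16 hpf and at 12 hpf, then 16 against 12 hpf in sa37 and in WT. Members called were 5, 1, 1, 0 and 0 without the block and 54, 11, 18, 54 and 61 with it. A pseudocount of 0.1 without the block gave 4, 2, 2, 0 and 0 (14 and 17 at an unadjusted p under 0.05 for the 2 stage counts). With the block, quantile normalization gave 50, 10, 18, 38 and 55, values below 0.5 RPM set to 0 gave 53, 10, 17, 52 and 59, a gap limit of 200 bases gave 42, 10, 12, 38 and 39, and edgeR gave 36, 3, 6, 28 and 37. The calls that edgeR shared with limma under the block were 30, 3, 6, 16 and 29. The strand ratio was called in 5, 0, 0, 1 and 1 member pairs without the block and in 26, 8, 11, 16 and 21 with it. A pseudocount of 0.1 gave 2, 0, 1, 0 and 0 (12, 11 and 12 at an unadjusted p under 0.05 for the zeros). With the block, quantile normalization gave 26, 7, 12, 16 and 21, values below 0.5 RPM set to 0 gave 25, 7, 11, 16 and 21, and a gap limit of 200 bases 20, 6, 6, 12 and 13. Leaving out each library in turn gave 1 to 2 members without the block averaged over stages and 0 in the other 4 comparisons. With the block it gave 16 to 36, 3 to 9, 2 to 17, 3 to 42 and 9 to 46. The ratio counts were 0 to 1 averaged over stages and 0 elsewhere without the block, and 11 to 24, 1 to 7, 3 to 9, 1 to 17 and 4 to 20 with it. The interaction gave 0 throughout. No filter on low values, run without the block alone, kept all counts of the fit without the block. Why the counts moved was not tested. Shares of all regions or pairs are given above only for limma without and with the block on all 8 libraries. The counts under the other settings therefore cannot be read as particular to the members. No called group difference of a named pair changed sign under these settings, while the stronger strand of the chromosome 1 pair with a gap of 118 bases differed between the replicates. The median size of the strand ratio was 1.81, 1.85 in replicate 1 or 2 alone and 2.33 with a pseudocount of 0.1. The number of pairs was 297 with a gap limit of 200 bases, 748 with 1000, 445 with clusters merged within 100 bases, 549 from regions of list 1 and 708 from those of list 2. The last 2 and the block with a library left out were chosen after seeing the data. Since 3 tags are 0.125 to 0.256 RPM, weak partners rest on few tags and limit the ratio.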
